A study of Mus musculus with 2 samples.

Results

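Txnip and Arrdc4, the alpha-arrestin genes known as readouts of glucose sensing, were followed in single pancreatic endocrine cells with and without Isl1, together with Arrdc3, Mlxipl, Mlxip, Mlx and Pklr. These 7 genes were chosen by name out of 46984 features, because earlier results of these data had shown high Txnip and Arrdc4 counts in the Isl1CKO library. The difference of Txnip and Arrdc4 between the libraries is therefore given as a description. All 7 genes were counted in both libraries and passed the level at which a gene was called measured.

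The samples were islet cells of 1-month-old mice, sorted for the red fluorescent reporter tdTomato and captured in droplets with the 10x 3′ chemistry, and there was 1 library per genotype. Each library pooled cells of 3 animals. Control animals were Neurod1 Cre/+; Isl1f/+ and Isl1CKO animals were Neurod1 Cre/+; Isl1f/f. Both groups thus carried Cre, an enzyme that cuts out the floxed segment, driven from Neurod1 in endocrine cells, and both carried at least 1 floxed allele of Isl1, the gene of a LIM-homeodomain factor of islet endocrine cells. The control is a heterozygote and not a wild type. Actinomycin D, which blocks new transcription, was present during dissociation of both pools. The comparison asks how endocrine cells differ without Isl1.

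When a cell takes up and phosphorylates glucose, the sugar phosphates activate ChREBP (encoded by Mlxipl) and its relative MondoA (encoded by Mlxip). Each binds DNA as a pair with Mlx at carbohydrate response elements, which are made of a pair of E-box-like sequences. Txnip, the protein that binds thioredoxin and limits glucose uptake, and Arrdc4, its close relative, are among the best known targets of both factors. In beta cells Txnip is known for its strong response to glucose, and Pklr, the liver-type pyruvate kinase, is a classic ChREBP target there.

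The promoters of Txnip and Arrdc4 are shown because these are the genes that moved. They are the 250 bases before the RefSeq start (GRCm38.p6), printed on the gene's own strand. Capitals mark CACGAG in the Txnip window and CACGTG in the Arrdc4 window, and the CCAAT matches named below are left unmarked.
Txnip promoter: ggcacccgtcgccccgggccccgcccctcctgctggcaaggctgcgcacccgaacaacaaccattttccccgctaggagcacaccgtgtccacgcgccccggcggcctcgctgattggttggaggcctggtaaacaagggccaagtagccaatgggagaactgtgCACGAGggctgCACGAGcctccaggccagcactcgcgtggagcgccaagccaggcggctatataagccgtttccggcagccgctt
Arrdc4 promoter: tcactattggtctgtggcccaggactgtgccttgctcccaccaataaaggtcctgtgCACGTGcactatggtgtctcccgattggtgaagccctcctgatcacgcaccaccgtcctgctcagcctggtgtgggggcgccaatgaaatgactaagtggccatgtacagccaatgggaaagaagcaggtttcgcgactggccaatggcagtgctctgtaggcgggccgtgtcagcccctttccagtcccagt
The Txnip window lies at chr3:96557707-96557956 on the plus strand, just before the gene (chr3:96557957-96561883). It holds CACGAG at 85 and again at 74 bases before the start, so that 5 bases separate the copies. The Arrdc4 window lies at chr7:68749239-68749488 on the minus strand, and the gene spans chr7:68736995-68749241. It holds CACGTG at 193 bases before the start.

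Among 32851 promoter windows of 250 bases, searched on both strands, CACGTG was in 6.02% and a single CACGAG in 5.37%. The spaced repeat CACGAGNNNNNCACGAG was found in 1 window, that of Txnip, but its letters were taken from that window. CACGTG was also in 1 Mlxipl window, at 98 bases before the start, and in the Mlx window, at 40 bases. CCAAT, present in 33.8% of all windows, matched 6 times in the Arrdc4 window and 2 times in that of Txnip. A match describes the letters and not the binding of a factor.

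After filtering, 4196 control and 8096 Isl1CKO endocrine cells remained, with medians of 9031 and 8157 UMIs (unique molecular identifiers, which count captured RNA molecules). A UMI of Chga or Chgb, which encode granins of endocrine cells, was found in 99.8% of the control cells and in essentially all Isl1CKO cells. The hormone genes took 42.2% of the control UMIs and 3.72% of the Isl1CKO UMIs. Levels are therefore in CPM over the total of all non-hormone UMIs of the summed cells. Only 8 cell barcodes were shared between the libraries. Among markers of other cell types, the acinar list summed to 173 CPM in control and 157 CPM in Isl1CKO, the ductal list to 318 and 373 CPM and the macrophage list to 266 and 101 CPM, and their part in the results was not tested. Isl1 itself stood at 529 CPM in control and at 367.7 CPM in Isl1CKO, and since the floxed exons are not stated, these counts do not check the genotype.

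Intervals are 95% intervals that cover counting error only. With 1 library per genotype no difference has a replicate check, no test was possible, and pool and genotype cannot be told apart. A gene was called higher or lower when its ratio was at least 2-fold with an interval that leaves out equality. Free RNA held both genes: barcodes with 1 to 100 UMIs, too few to count as cells, carried Txnip at 921 CPM and Arrdc4 at 302.5 CPM in Isl1CKO. In control these barcodes carried 184.4 and 22.8 CPM. They held 6141338 of the 86086781 UMIs of the Isl1CKO library and 3405226 of the 48685758 UMIs of the control library. Non-endocrine cells, at a median of 6646 UMIs in Isl1CKO (135 cells) and 5044 in control (23 cells), had a Txnip UMI in 80.7% and 56.5% and an Arrdc4 UMI in 52.6% and 13.04%. The part of free RNA in the levels below was not tested.

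Both sexes were present in each library, whereas the labels name only males for the control pool. Female cells, with Xist UMIs and no Y-linked ones, made up 23.1% of control and 65.4% of Isl1CKO endocrine cells. Male cells, with the reverse, made up 41.3% and 20.6%. Because the animals were pooled, female and male cells come from different animals, and sex and animal cannot be told apart. Ratios between the genotypes were therefore also taken within female and within male cells, for all endocrine cells and for part of the cell groups below.

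Txnip was 5.02-fold and Arrdc4 19-fold higher in the Isl1CKO library. In control, Txnip had 239 CPM (233.1 to 245.1), and in Isl1CKO 1200.3 CPM (1192 to 1208), which gives 2.33 (2.29 to 2.37) as the log2 ratio. Arrdc4 had 18.9 CPM (17.3 to 20.7) and 361.7 CPM (357.4 to 366), which gives 4.25 (4.13 to 4.39). The share of cells with an Arrdc4 UMI was 10.2% in control and 73.8% in Isl1CKO. After thinning each cell to 2000 non-hormone UMIs it was 3.91% and 42.6%. For Txnip the shares were 62.1% and 91.4%, and 33.6% and 74.1% after thinning.

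The other members lay closer to equality. Arrdc3, an alpha-arrestin that acts on the beta-2 adrenergic receptor, stood at 16.1 CPM in control and 23.5 CPM in Isl1CKO. Mlxip had 17.0 and 33.0 CPM, which is 0.95 on the log2 scale (0.81 to 1.10), just inside the 2-fold limit. Mlxipl stood at 64.4 and 38.0 CPM (log2 ratio -0.76), Mlx at 57.0 and 34.2 CPM (-0.74) and Pklr at 8.21 and 5.82 CPM (-0.50). In all, 2 of the 7 members were called higher and none lower by this rule, where 4.78% of the 11012 measured genes were called higher and 10.2% lower. Nothing is read from that count, since the 2 called members were the reason for the choice. The median log2 ratio of all measured genes was -0.16, and the ratio of Mlxip was at percentile 94.9 of all measured genes, that of Mlxipl at 16.4 and that of Mlx at 17.0.

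The choice of total matters for the members near equality. CPM over all UMIs, hormones included, move every ratio over endocrine cells by 0.74, and Mlxipl then comes to -0.03, Mlx to 0.00 and Pklr to 0.23. TMM scaling moves them by 0.20 and takes Mlxip past 2-fold, to 1.15. Txnip and Arrdc4 were called higher under each of these scalings. Genes on the other strand overlap every member but Arrdc4. They were counted apart, but without the strand setting it is not known whether reads of 1 gene were counted for the other. Gm15441, opposite Txnip, had 228 UMIs in control and 2108 in Isl1CKO, beside 6169 and 88911 of Txnip. Gm43500, opposite Mlxipl, had 0 UMIs in both libraries. Mlxip is also overlapped by genes on its own strand, as given at the end.

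**Figure D1:**
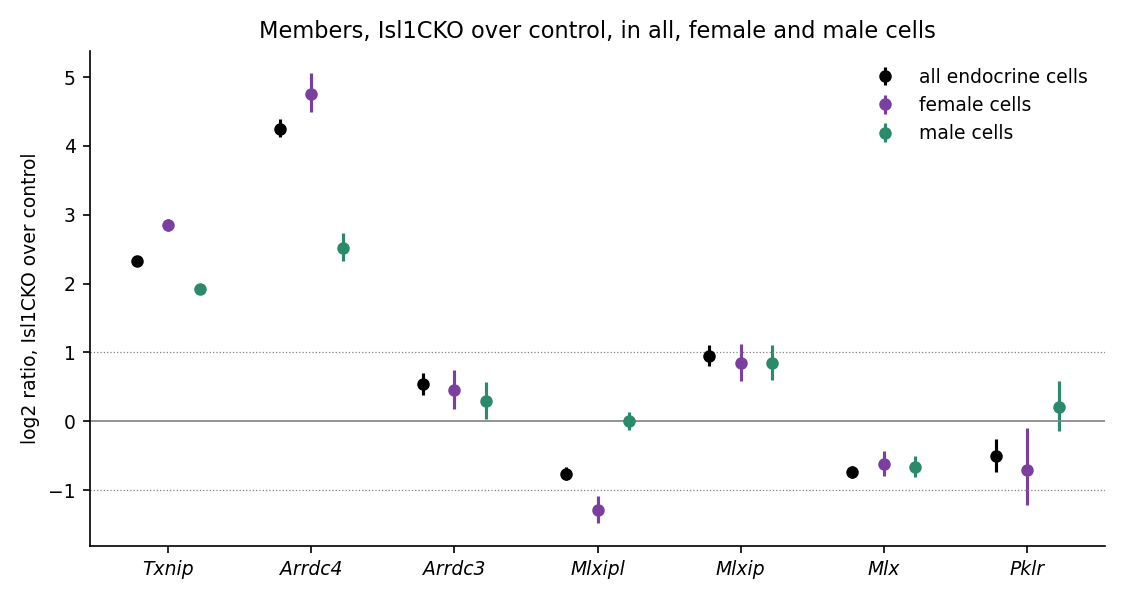
Log2 ratio of Isl1CKO over control (vertical axis) for the 7 members in all endocrine, female and male cells; bars are exact 95% intervals for counting error and dotted lines mark 2-fold. Txnip and Arrdc4 lie above 2-fold in both sexes, and Mlxipl lies at -1.29 in female and at 0.00 in male cells.

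The ratios differed in size between the sexes. Female cells had Txnip at 178.9 CPM in control (1085 UMIs in 969 cells) and 1295 CPM in Isl1CKO (5297 cells), 2.85 apart on the log2 scale (2.77 to 2.94). Male cells had 273.3 CPM (1734 cells) and 1033 CPM (1669 cells), 1.92 apart (1.86 to 1.97). Arrdc4 stood at 17.5 and 476 CPM in female cells, 27-fold apart, and at 20.6 and 118.4 CPM in male cells, 5.73-fold apart. So the control levels of Arrdc4 were alike within their intervals (14.3 to 21.1 and 18.0 to 23.4 CPM), and the Isl1CKO levels of the sexes were 4.02-fold apart. The cells of Isl1CKO that gave no clear sex (1130 cells) had 289.9 CPM of Arrdc4, between the 2 sexes.

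Mlxipl differed by sex as well. It stood at 47.8 CPM in female control and 19.6 CPM in female Isl1CKO cells, a called difference (log2 ratio -1.29, -1.48 to -1.09). In male cells it stood at 76.3 and 76.5 CPM. With CPM over all UMIs the values are -0.61 in female cells, which is not called, and 0.73 in male cells, so the gap between the sexes is as wide. Mlxip had the same log2 ratio of 0.84 in both sexes, and Mlx had -0.62 and -0.66. Among all measured genes, 6.64% were called higher and 15% lower in female cells, and 3.27% and 7.06% in male cells, so female cells gave more calls of every kind. The mitochondrial share of UMIs was 0.644% in control and 1.61% in Isl1CKO, with 1.51% in female and 1.76% in male Isl1CKO cells.

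Cells were also grouped by lineage transcription factors, which both libraries retain while hormones do not. Of the Isl1CKO cells, 6986 had no hormone at 1% of their UMIs, against 102 control cells. A cell with UMIs of alpha cell factors, among them Irx1 and Irx2, and none of the others is called an alpha-factor cell. A cell with Pdx1 or Nkx6-1, factors of beta cells, and with no alpha cell factor or Hhex is called a beta-factor cell. Hhex, a delta cell factor, marks the Hhex cells, which have no alpha cell factor but may hold Pdx1 or Nkx6-1. A group is defined by these UMIs and is not a proven cell type: of the 708 control beta-factor cells, 156 had insulin as the only hormone and 322 had 2 or more hormones at 1%. Ratios in Hhex cells, in cells with alpha and other factors together and in cells with no factor were not split by sex. Those in cells with Gcg as the only hormone were not split either. Since the share of female cells differs between the libraries, these ratios mix sex with genotype.

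**Figure D2:**
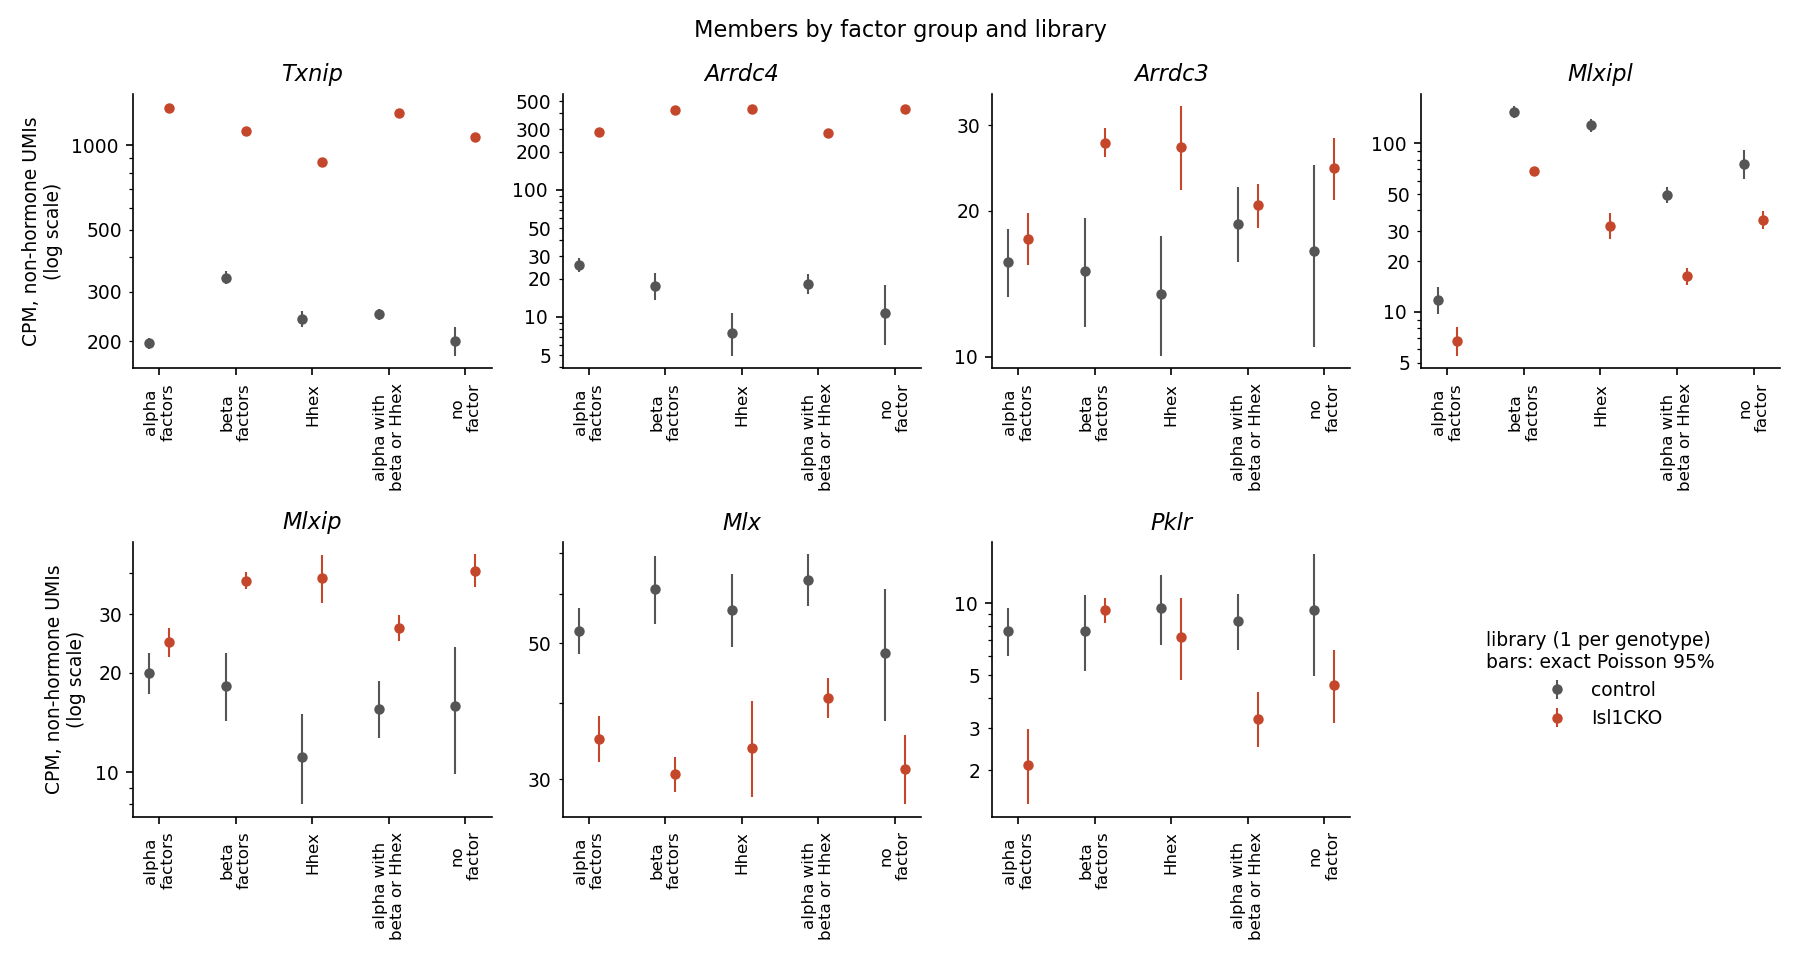
CPM of each member (vertical, log scale, with its own range in each panel) in the 5 factor groups for control and Isl1CKO; bars are exact Poisson 95% intervals. Txnip and Arrdc4 lie higher in Isl1CKO in every group, whereas Mlxipl keeps its order of high beta-factor and low alpha-factor cells in both libraries.

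Txnip was called higher in Isl1CKO in all 5 factor groups. In alpha-factor cells it stood at 196.7 CPM in control (1637 cells) and 1365 CPM in Isl1CKO (1547 cells), 6.93-fold apart. In beta-factor cells it stood at 336.6 CPM (708 cells) and 1129 CPM (3223 cells), 3.35-fold apart. Hhex cells had 240.5 CPM (675 cells) and 869.9 CPM (400 cells). The order of lineages turned round: in control, beta-factor cells had 1.71-fold more Txnip than alpha-factor cells, and in Isl1CKO 1.21-fold less. This turn was seen in female cells and not in male cells, as given below. Cells with alpha and other factors together had 249.2 and 1301 CPM, and cells with no factor 199.96 and 1073 CPM. Intervals of groups next to each other in level were apart in Isl1CKO, while in control Hhex cells overlapped the cells with alpha and other factors, and alpha-factor cells overlapped the cells with no factor.

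Arrdc4 was called higher in all 5 groups too, with ratios from 11-fold in alpha-factor cells to 57-fold in Hhex cells. Control levels were 25.7 CPM in alpha-factor, 17.5 in beta-factor and 7.40 CPM (28 UMIs) in Hhex cells. Isl1CKO levels were 284.4, 424.1 and 436.4 CPM in the same order, and those of beta-factor cells, Hhex cells and cells with no factor (431.5 CPM) overlapped in their intervals. Cells with alpha and other factors had 18.2 and 279.1 CPM, within the interval of alpha-factor cells in Isl1CKO. Alpha-factor cells thus had the most Arrdc4 of these 3 groups in control and the least in Isl1CKO.

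Mlxipl, the ChREBP gene, marked a lineage in both libraries. Control beta-factor cells had 153.9 CPM and alpha-factor cells 11.7 CPM, 13.1-fold apart, and the Isl1CKO levels were 68.5 and 6.72 CPM, 10.1-fold apart. Insulin-only cells exceeded Gcg-only cells by 18-fold in control and 14-fold in Isl1CKO. Within beta-factor cells Mlxipl was called lower in Isl1CKO (log2 ratio -1.17), as it was in Hhex cells (128.2 and 32.4 CPM, -1.97). The call in beta-factor cells is lost with TMM scaling (-0.98) and with CPM over all UMIs (-0.33), and by sex the log2 ratio was -2.41 in female and -0.20 in male beta-factor cells.

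Mlxip and Mlx differed less between lineages. Mlxip stood at 19.96 CPM in alpha-factor and 18.2 CPM in beta-factor cells of control, and at 24.7 and 37.9 CPM in Isl1CKO. It was called higher in beta-factor cells (log2 ratio 1.04) and Hhex cells (1.77) but not in alpha-factor cells (0.30). The call in beta-factor cells was that of the male cells (10.9 and 36.2 CPM, 1.67), and female cells had 30.9 and 38.6 CPM (0.26). Mlx, the obligate partner of both factors, stood at 52.3 and 61.2 CPM in control alpha-factor and beta-factor cells and at 34.9 and 30.6 CPM in Isl1CKO. In beta-factor cells it was 2.01-fold lower, on the 2-fold limit, and the call is lost with TMM scaling (-0.81). Within the sexes Mlx was called in neither. Female beta-factor cells had 51.4 CPM in control and 29.7 CPM in Isl1CKO, and male ones 58.0 and 31.8 CPM. Arrdc3 was called in none of the factor groups: its levels were 13.5 to 18.8 CPM in the control groups and 17.5 to 27.6 CPM in the Isl1CKO groups, and its ratio in Hhex cells (0.99) and beta-factor cells (0.86) passes 2-fold with TMM scaling (1.12 and 1.04).

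Pklr was lower in Isl1CKO in the alpha-factor cells. There it stood at 7.64 CPM in control (75 UMIs) and at 2.11 CPM in Isl1CKO (32 UMIs), called lower with a log2 ratio of -1.83 (-2.50 to -1.24). In beta-factor cells it stood at 7.64 CPM (31 UMIs) and 9.37 CPM (279 UMIs), a ratio of 0.25 whose interval (-0.24 to 0.88) includes equality. Control showed no lineage difference in Pklr (log2 -0.03, -0.62 to 0.65), and in Isl1CKO beta-factor cells exceeded alpha-factor cells by 4.32-fold. The gene Hcn3 overlaps Pklr on the other strand. It was called lower in alpha-factor cells too (6.82 and 2.50 CPM, -1.43) and stood at 4.69 and 5.14 CPM in beta-factor cells. Whether reads of 1 of these genes were counted for the other is not known, since the strand setting of the counting is not given in the sources used here.

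In alpha-factor cells 2 members were called higher and 1 lower, where 4.4% of measured genes were called higher and 14.5% lower. In beta-factor cells 3 were called higher and 2 lower, against 5.53% and 10.4% of measured genes. In Hhex cells 3 were called higher and 1 lower, against 8.43% and 14.4%. Cells with alpha and other factors had 2 members called higher and 2 lower (Pklr and Mlxipl), against 3.76% and 12.2%. Cells with no factor had 3 called higher and 1 lower, against 7.25% and 15.8%.

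Cells with insulin as the only hormone are the nearest to beta cells in each library. Control held 186 of them and Isl1CKO 924. Txnip was at 559.7 CPM in control, the highest level of any control hormone group, and at 1503 CPM in Isl1CKO. Arrdc4 was at 29.2 CPM (36 UMIs) and 556.2 CPM. The other control groups had Txnip at 188.3 CPM (Gcg only), 225.8 CPM (Sst only), 317.1 CPM (Ppy only) and 221.3 CPM (2 or more hormones).

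In these insulin-only cells 3 members were called higher (Txnip, Arrdc4 and Pklr) and 2 lower (Mlxipl and Mlx), against 6.64% and 11% of measured genes. In the female insulin-only cells, which number 20 in control, Txnip stood at 510.8 and 1016 CPM and was not called (log2 ratio 0.97, 0.67 to 1.34), and Pklr and Mlx were not called either. Arrdc4, with 0 control UMIs, was called higher and Mlxipl lower there, against 3.23% and 9.44% of measured genes. Pklr stood at 5.67 CPM on 7 control UMIs and at 13.8 CPM in Isl1CKO. Mlxipl stood at 204.1 and 102 CPM. Hormones took so much of the control UMIs in these cells that CPM over all UMIs shift the ratios by 1.32, and Mlxipl then lies at 0.31. In the Gcg-only cells (1576 in control, 172 in Isl1CKO) Txnip stood at 968.7 and Arrdc4 at 353.9 CPM in Isl1CKO, both called higher, and Pklr was called lower on 2 Isl1CKO UMIs, against 4.8% and 22.3% of measured genes. Within Isl1CKO, cells with 5% or more insulin UMIs (464 cells) had Txnip at 1658 CPM and Arrdc4 at 538.9 CPM, and those with 1% to 5% (460 cells) had 1339.7 and 574.4 CPM.

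Sex and lineage together showed an arrangement that neither shows alone. In Isl1CKO alpha-factor cells Txnip was at 1887 CPM in 1046 female cells and at 465.9 CPM in 316 male cells, 4.05-fold higher in the female cells. In Isl1CKO beta-factor cells it was at 869.1 CPM in 1961 female cells and at 1658 CPM in 820 male cells, 1.91-fold higher in the male cells. The order of the sexes was thus opposite in the 2 lineages. In male cells the order of lineages was that of control, with beta-factor cells above alpha-factor cells. Insulin-only cells had 1016 CPM in female and 2262 CPM in male cells, the same order as the beta-factor cells. Depth differed too: over Isl1CKO endocrine cells the median was 7856 UMIs in female and 10946 UMIs in male cells. Among thinned cells without a Txnip UMI, these medians were 8334.5 and 13398 in alpha-factor cells and 8916 and 7319 in beta-factor cells. The part of depth in the groups and levels was not tested.

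Arrdc4 did not share this reversal. It was higher in female cells of both Isl1CKO lineages: 397.8 and 63.1 CPM in female and male alpha-factor cells, 555.2 and 179.2 CPM in beta-factor cells, and 799.8 and 223.4 CPM in insulin-only cells. In the alpha-factor and beta-factor cells of the control library the sexes lay nearer to each other. Txnip there was at 156.6 CPM in female and 219 CPM in male alpha-factor cells, and at 242.5 and 376 CPM in beta-factor cells, higher in male cells of both lineages. Control Arrdc4 was at 23.3 and 26.1 CPM in female and male alpha-factor cells and at 10.3 (7 UMIs) and 20.8 CPM in beta-factor cells, with overlapping intervals. Control insulin-only cells had 0 Arrdc4 UMIs in female cells and 27 UMIs (37.8 CPM) in male cells. The interval of that log2 ratio, female over male, ends at -0.51. It covers counting error only and rests on few female control cells, so no order of the sexes is read from it.

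**Figure D3:**
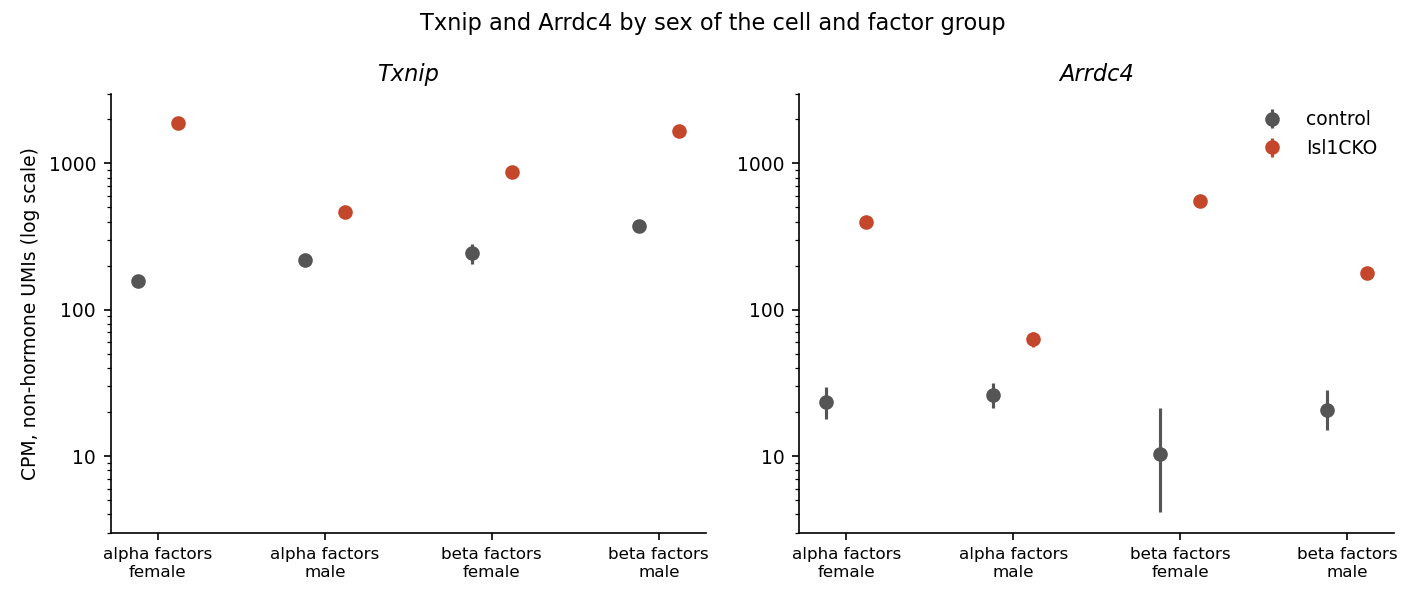
CPM (vertical, log scale) of Txnip and Arrdc4 in alpha-factor and beta-factor cells of each sex, for control and Isl1CKO, with exact Poisson 95% intervals. Isl1CKO Txnip is highest in female alpha-factor cells (1887 CPM) and lowest in male alpha-factor cells (465.9 CPM), whereas Isl1CKO Arrdc4 is higher in female cells of both lineages.

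The ratio between genotypes followed. In female alpha-factor cells Txnip was 12-fold higher in Isl1CKO and in male ones 2.13-fold. In beta-factor cells the ratios were 3.56-fold in female and 4.40-fold in male cells. For Arrdc4 they were 16.8-fold and 2.40-fold in female and male alpha-factor cells, and 47.2-fold (7 control UMIs) and 8.41-fold in beta-factor cells. The 63.1 CPM of Arrdc4 in male Isl1CKO alpha-factor cells and their 465.9 CPM of Txnip lie below the levels of the near-empty barcodes of that library (302.5 and 921 CPM), and how much of it came from free RNA was not tested.

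Mlxipl and Pklr were lower in female than in male cells of the Isl1CKO beta-factor group. Mlxipl stood at 32.0 CPM in female and 140.9 CPM in male cells, 4.40-fold apart, against 169 and 161.7 CPM in control. Pklr stood at 4.77 and 17.2 CPM, 3.59-fold apart, on 85 and 140 UMIs. In Isl1CKO alpha-factor cells the intervals of the ratio between the sexes include equality for both genes. Mlxip was 2.10-fold higher in female than in male Isl1CKO alpha-factor cells (30.7 and 14.5 CPM), while in beta-factor cells the sexes had 38.6 and 36.2 CPM.

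Called members within sex and lineage were 2 higher in female alpha-factor cells (background 6.18% higher, 20.6% lower), 2 higher and 1 lower in female beta-factor cells (6.13% and 15.4%), 2 higher and 1 lower in male alpha-factor cells (3.28% and 13.6%) and 4 higher in male beta-factor cells (5.39% and 7.67%). Male insulin-only cells had 3 higher and 1 lower (5.54% and 8.93%). The 4 of the male beta-factor cells were Txnip, Arrdc4, Mlxip and Pklr, and the log2 ratio of Pklr among them was 1.54 (0.77 to 2.69). In female alpha-factor and beta-factor cells Pklr was under the measured level in both libraries.

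Within a library, Txnip and Arrdc4 counts of single cells were only weakly related. Over cells thinned to 2000 non-hormone UMIs, the Spearman correlation within hormone and factor groups had a mean of 0.14 over 7 Isl1CKO groups (7667 cells, range -0.09 to 0.27) and of 0.02 over 5 control groups (3923 cells, range -0.04 to 0.13). The cells of a library share its preparation, and before thinning both counts followed depth (rho 0.49 and 0.48 with the total UMIs in Isl1CKO). A correlation this weak in sparse counts is no finding. The insulin-only group of Isl1CKO, at -0.09 when pooled, gave 0.14 in its female and 0.09 in its male cells. In these cells Txnip was higher in male and Arrdc4 in female cells.

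Binning the thinned cells by Txnip describes the relation in counts. In male Isl1CKO cells the mean of Arrdc4 was 0.105 UMIs per cell where Txnip was 0 (572 cells), 0.185 at 1 Txnip UMI, 0.279 at 2 to 3, 0.448 at 4 to 7 and 0.427 at 8 or more (82 cells). In female Isl1CKO cells it was 0.744 where Txnip was 0 (1109 cells) and between 0.837 and 0.973 in the other bins. Female cells without a Txnip UMI thus held more Arrdc4 than male cells with the most Txnip. In male Isl1CKO beta-factor cells the mean went from 0.136 where Txnip was 0 to 0.477 at 4 to 7 Txnip UMIs, and in male alpha-factor cells it was 0.105 to 0.126 in the 3 bins with enough cells. In control it was 0.042 per cell where Txnip was 0 (2669 cells) and 0.021 to 0.116 in the other bins.

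**Figure D4:**
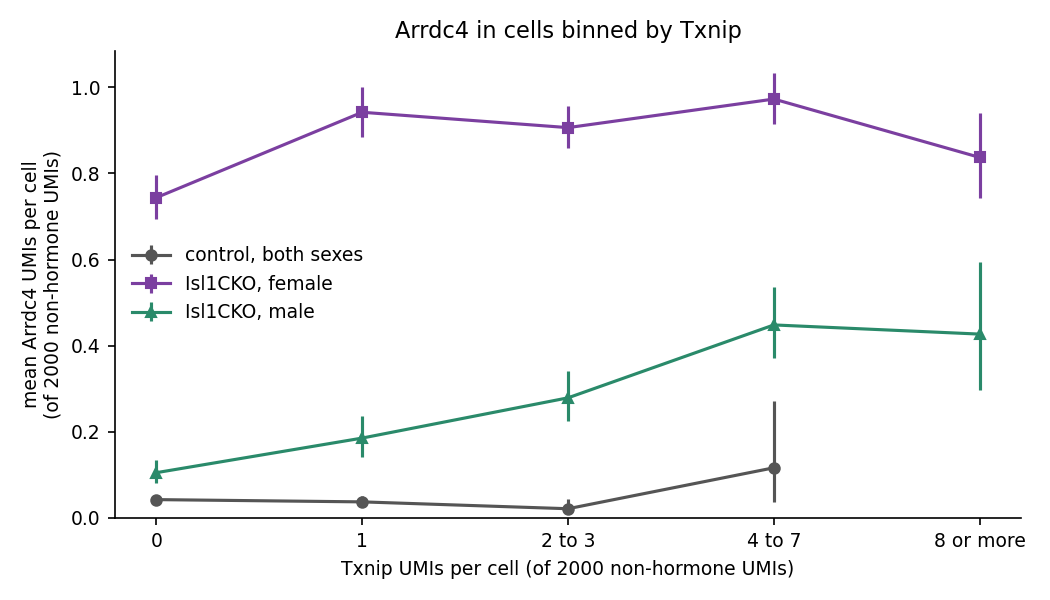
Mean Arrdc4 UMIs per cell (vertical) in thinned cells binned by their Txnip UMIs (horizontal), for control, female Isl1CKO and male Isl1CKO cells, with exact Poisson 95% intervals. The male line rises from 0.105 to 0.448 UMIs by the bin of 4 to 7, and the female line stays between 0.744 and 0.973.

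The genes whose counts were most like those of Txnip were ranked by the same mean correlation. In Isl1CKO, among 2982 genes over 7 groups, Ddit4 came first (0.20), then Wnt4 (0.17), the tdTomato transgene (0.15) and Arrdc4 (0.14), followed by Lpin1, Cry2, Klf9, Por, Nfkbia and Errfi1. In female Isl1CKO cells Ddit4, an inhibitor of mTORC1 signalling, was again first (0.16) and Arrdc4 18th. In male Isl1CKO cells Dcdc2a (0.18), Rspo4 and Pkm led, and Arrdc4 was 6th, while Ddit4 was at rank 531 (0.04) and Klf9 at rank 1574 (0.01). In control the first were Chgb (0.13), Gpx3 (0.11) and Pam (0.10), followed by Ccnd1, Malat1, Map1b, Kcnq1ot1, Chga, Smarca1 and Pcsk2. Arrdc4 was found in too few control cells to be ranked.

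The other known targets of ChREBP and MondoA were called in both directions. Of 27 listed targets, members included, 20 were measured. Of the 16 measured targets that are no members, 2 were called higher (Bhlhe40 is one) and 3 lower (Slc2a2, Me1 and Mid1ip1), beside 4.78% and 10.2% of all measured genes. Their median log2 ratio was -0.07 beside -0.16 over all genes. Slc2a2, the glucose transporter of mouse beta cells, stood at 60.2 and 21.7 CPM. Mid1ip1, a partner of acetyl-CoA carboxylase, stood at 175 and 77.5 CPM.

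In male beta-factor cells 5 of the 16 measured targets that are no members were called higher, among them Acly and Fasn of fatty acid synthesis, Klf10 and Bhlhe40, and 1 lower (Slc2a2), beside 5.39% and 7.67% of all genes. In male insulin-only cells the counts were 6 and 1 of 16, beside 5.54% and 8.93%. The median over the 16 was 0.45 in male beta-factor cells beside -0.12 over all genes. In female beta-factor cells 2 of 15 were called higher and 3 lower, beside 6.13% and 15.4%, with a median of -0.13. In alpha-factor cells none of 13 was called higher and 2 lower, beside 4.4% and 14.5%.

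Of 6 alpha-arrestins 5 were measured, and beside Txnip and Arrdc4 none was called over all endocrine cells. Arrdc1, which directs release of vesicles at the plasma membrane, stood at 28.5 and 48.5 CPM and was called higher in female cells (27.5 and 56.0 CPM) but not in male cells (28.0 and 30.5 CPM). In the Myc-Max-Mlx network 2 of 10 measured genes were called higher, Mycl and Mnt, beside 4.78% of all measured genes. The same 2 of 10 were called higher in female cells, beside 6.64%, and 0 of 9 in male cells, beside 3.27%. Mnt, a repressor that pairs with Max and Mlx, stood at 16.9 and 45.0 CPM.

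The thioredoxin system, which Txnip acts on, had no gene called higher and 1 of 13 called lower, Txnrd2, the mitochondrial thioredoxin reductase (26.5 and 11.2 CPM), a share near the 10.2% of all measured genes called lower. Txn1, the cytosolic thioredoxin that Txnip binds, stood at 267 and 147.1 CPM, and at 261 and 116.6 CPM in female cells, where it was called lower. The median log2 ratio of the list was -0.42, beside -0.16 over all genes. With CPM over all UMIs, which move every ratio by 0.74, the list median is 0.32, with 2 genes called higher and none lower. Under that total far more of all genes are called higher than lower, as counted below.

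Of 24 genes of glucose entry and glycolysis 19 were measured. 1 was called higher and 3 lower (G6pc2, Slc2a2 and Hk1), beside 4.78% and 10.2% of all measured genes. The median was -0.44 beside -0.16 over all genes, and it is 0.30 with CPM over all UMIs, which move every ratio by 0.74. G6pc2, a glucose-6-phosphatase subunit of islet cells, stood at 52.5 CPM in control and 3.20 CPM in Isl1CKO. In alpha-factor cells 7 of 16 measured genes were called lower, among them Pfkl (66.9 and 19.0 CPM), Eno1 (63.4 and 26.8 CPM) and Pklr, beside 14.5% of all genes. With TMM scaling 5 of the 16 are called lower, and with CPM over all UMIs 4. These scalings move every ratio in alpha-factor cells by 0.31 and 0.75, and the share of all genes called under them was not counted there.

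Txnip is also known to respond to glucocorticoids, the hormones of the adrenal cortex, and the list of genes of that response had the highest median of the 6 lists over all and over female endocrine cells, though not over male ones. Of 11 listed and measured genes 8 were called higher in Isl1CKO, beside 4.78% of all genes, with a median log2 ratio of 1.70. This list, like the others, was chosen with earlier results of these data known, so its counts are a description only. Klf15 stood at 2.44 and 72.4 CPM, Ddit4 at 21.1 and 186.3 CPM, Klf9 at 80.6 and 300.7 CPM, and Per1, a clock gene, at 11.8 and 62.8 CPM. All of these were among the genes called higher. In insulin-only cells 7 of the 11 were called higher and 2 lower, beside 6.64% and 11% of all genes. In male alpha-factor cells 3 of 11 were called higher and 1 lower, beside 3.28% and 13.6%. The list was unlike in the sexes. In female cells 8 of 11 were called higher, beside 6.64% of all genes, with a median of 2.27. In male cells 2 of 10 were called higher (Klf15 and Zbtb16), beside 3.27%, with a median of 0.12, under those of the alpha-arrestins (0.29) and of the ChREBP and MondoA targets (0.24). Ddit4 was at 263.8 CPM in female and 30.8 CPM in male Isl1CKO cells, and Klf9 at 411.3 and 74.6 CPM. Part of the list, such as Ddit4, responds to other stimuli too, and whether the values of Txnip and Arrdc4 depend on it was not tested.

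**Figure D5:**
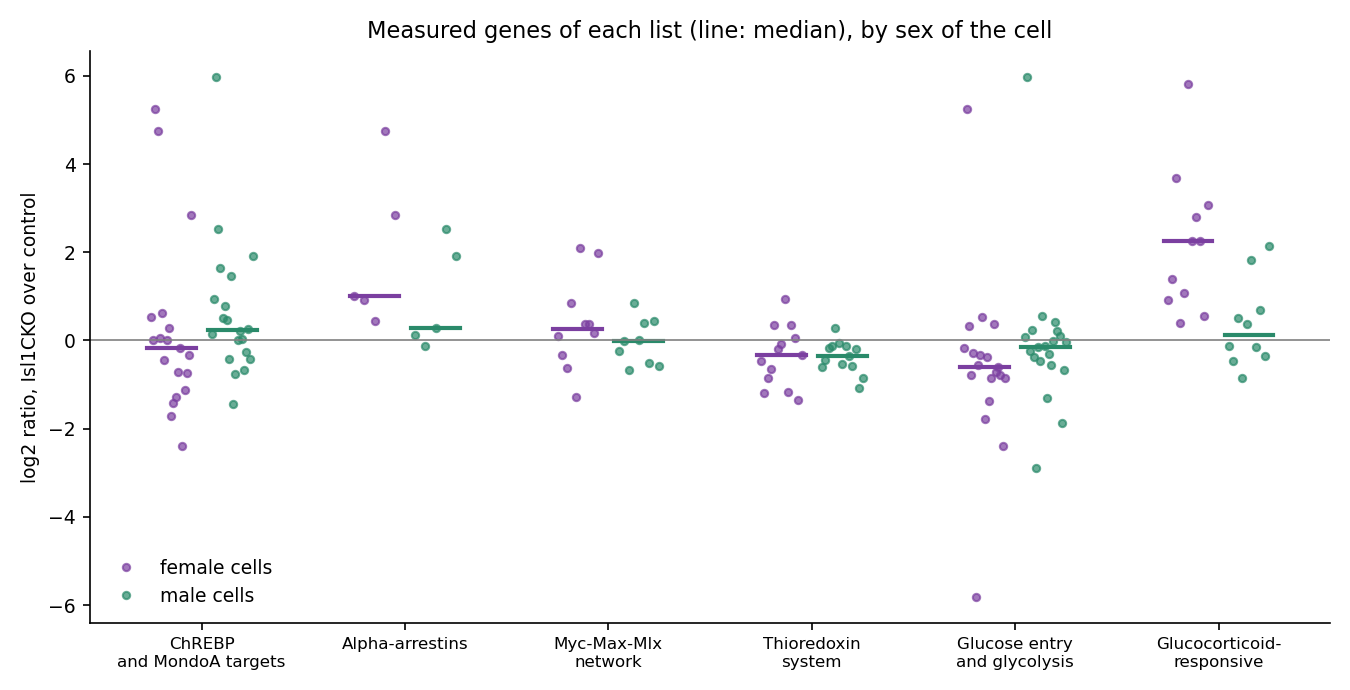
Log2 ratio of Isl1CKO over control (vertical axis) for each measured gene of the 6 lists, with female and male cells side by side; horizontal lines are list medians. The medians of the glucocorticoid-responsive list are 2.27 in female and 0.12 in male cells, and those of the ChREBP and MondoA targets are -0.16 and 0.24.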

How the data were processed

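The deposited files hold whole-number UMI counts per gene and barcode, 1 matrix per library, with 46984 features and no cell filter in them. The authors' processing used STARsolo with STAR 2.7.3a, Seurat 4.3.0.1 and GRCm38.p6, per the submitters' processing notes. The libraries held 48685758 (control) and 86086781 (Isl1CKO) UMIs. Barcodes were kept as cells from 1000 UMIs and 500 genes upwards, with mitochondrial genes at 15% of the UMIs or less. Cells with 0.5% or more of their UMIs from a list of acinar, ductal, macrophage, lymphocyte, endothelial, stromal, Schwann or erythroid markers were taken out (23 and 135 cells). Doublets were kept: Scrublet marked 249 of 4219 control cells and none of 8231 Isl1CKO cells, which means that it did not work there.

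CPM leave out Gcg, Sst, Ppy, Pyy, Ins1, Ins2, Iapp and Ghrl from the total. A gene was measured at 5 CPM in at least 1 library. Log2 ratios use 1 added to each summed count; their 95% intervals are exact and treat the counts as Poisson given their sum. For shares and correlations cells were thinned to 2000 non-hormone UMIs (179 control and 416 Isl1CKO cells were shallower and left out). A cell was put in a hormone group when 1 hormone (insulin genes together) took 1% or more of its UMIs, and in a factor group from 1 UMI. Correlations used groups with at least 100 thinned cells and genes found in at least 10% of thinned cells. The ratios and correlations were tested on simulated data. Alternatives were CPM over all UMIs, TMM (edgeR 4.0.16), DESeq2 1.42.0 size factors, other filters on cells and genes, and cells of 1 sex. Other scalings in the beta-factor, Hhex and single-sex groups and for the gene lists were added after seeing the data. Python 3.11.15, scanpy 1.11.5 and R 4.3.3 were used. Promoters were taken from RefSeq and positions from GENCODE vM21.

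The members and gene lists were chosen with earlier results of these data known. Named are all members, up to 5 genes a list with the largest ratios at 20 CPM or more or the best known ones, and the 10 genes most like Txnip per library. Smaller genes named where a list's calls are spelled out, and the overlapping genes, were chosen after their values were seen. Some members of the gene lists and lineage factors are not reported here by name.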

Additional observations from a re-analysis of the deposited data

Results flagged for a closer look

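Members were also counted outside the endocrine cells, in barcodes with 1 to 100 UMIs and in the cells taken out as non-endocrine. For each, those members are given whose interval in Isl1CKO lay above that in control. The share of all genes that did so was not counted. In the near-empty barcodes Txnip was at 921 CPM in Isl1CKO and 184.4 CPM in control, Arrdc4 at 302.5 and 22.8 CPM, Arrdc3 at 22.5 and 12.2 CPM, and Mlxip at 35.2 and 10.6 CPM. In the non-endocrine cells Txnip was at 943 CPM in Isl1CKO (135 cells) and 482 CPM in control (23 cells), and Arrdc4 at 293.9 CPM (310 UMIs) and 31.4 CPM (3 UMIs).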

How the results depend on the processing

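Over all endocrine cells Txnip and Arrdc4 were called higher under every alternative run; in insulin-only cells the Txnip call is lost in female cells (0.97). Txnip, 2.33 as reported, had a log2 ratio of 3.06 with CPM over all UMIs, 2.53 with TMM factors and 2.53 with DESeq2 size factors, 2.85 in female and 1.92 in male cells. Arrdc4, 4.25 as reported, had 4.99, 4.45 and 4.45 with these scalings, 4.75 in female and 2.52 in male cells. Scaling moves all genes alike, by 0.74, 0.20 and 0.20. Over endocrine cells 1652 genes were called (526 higher, 1126 lower); CPM over all UMIs called 2728 (2363 higher, 365 lower), TMM 1511 (734 and 777), DESeq2 size factors 1511 (732 and 779), no filter on low counts 4304 and a level of 20 CPM 859. In insulin-only cells Mlxipl turned from -1.01 to 0.31 with CPM over all UMIs and to 0.10 in male cells, and Pklr from 1.10 to -0.65 in female cells, which number 20 in control. Of 211 further values for single members 149 stayed within the 95% counting interval of the reported value, 59 moved outside it and 3 reversed. The correlation of Txnip and Arrdc4 was between 0.09 and 0.24 under the alternatives in Isl1CKO and between -0.02 and 0.06 in control; female Isl1CKO cells pooled over groups gave 0.05. No paired analysis was possible because there is 1 library per genotype, and for the same reason no replicate could be left out. Depth limits Pklr most, with 212 and 431 UMIs.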

Other observations

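Genes that overlap the members on the other strand were counted too. Gm15441, annotated antisense to Txnip, stood at 8.83 CPM in control (228 UMIs) and 28.5 CPM in Isl1CKO (2108 UMIs), a log2 ratio of 1.68 (1.49 to 1.89). It was at 16.0 and 34.0 CPM in female cells and at 6.23 and 17.1 CPM in male cells. Gm15747, annotated antisense to Mlxip, stood at 3.53 CPM (91 UMIs) and 28.3 CPM (2099 UMIs), a log2 ratio of 2.99 (2.7 to 3.33), and was called higher in female cells (3.26) and male cells (1.59). Psmc3ip, which overlaps Mlx, was called lower (28.7 and 11.2 CPM). Gm42907, Gm42908 and Gm43813 overlap Mlxip on its own strand, and none of them was called over all endocrine cells. In beta-factor cells Gm43813 was called higher (16 and 328 UMIs, 3.95 and 11.0 CPM, log2 ratio 1.40). The strand setting of the counting is not given in the sources used here, so it is not known whether reads of a gene were counted for its antisense partner.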
